A study of Mus musculus with 24 samples.

Results

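Ptprg and 7 of its relatives, Ptpra, Ptpre, Ptprj, Ptprk, Ptprm, Ptpro and Ptprs, are receptor-type protein tyrosine phosphatases, and their mRNA levels were followed in mouse bone marrow LSKs. The members were chosen by gene symbol. Ptprg leads the list because of its level in blast crisis against chronic phase CML, so for these 8 genes that contrast is described here without a test, as is the contrast of blast crisis against knockout LSKs for Ptprg. The 8 genes are 8 of the 24091 genes in the count table, and all 8 were among the 13520 genes tested.

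LSKs are the Lin-Sca-1+c-Kit+ fraction of the marrow, which holds the hematopoietic stem cells and early progenitors. The 24 libraries were bulk mRNA-seq of LSKs from 24 mice in 4 groups of 6, with 3 females and 3 males a group. WT and miR-142 KO mice differed in the microRNA gene Mir142 and carried no BCR-ABL transgene as labelled. CP CML mice were miR-142+/+BCR-ABL, and BC CML mice were miR-142-/-BCR-ABL, so BC CML and miR-142 KO share the Mir142 deletion. In the CML mice, on a B6 background, an SCL-driven tetracycline transactivator turned on BCR-ABL when tetracycline was withdrawn, and the LSKs were taken 2 weeks later. The model therefore expresses the oncogene only where the SCL promoter is active. The ages of the mice are not given in the sources used here.

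Receptor-type tyrosine phosphatases remove phosphate from tyrosines of other proteins, the reverse of what a tyrosine kinase such as BCR-ABL does. Each has an extracellular segment, 1 membrane-spanning segment and 1 or more phosphatase domains inside the cell. The sub-families differ outside the cell. Ptprg carries a carbonic anhydrase-like domain that binds contactins and has been studied in CML as a phosphatase that can act on BCR-ABL. In blood cells the best known relative is Ptprc (CD45), which activates Src family kinases.

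Because the study deleted Mir142, the sequences of its mature products and of the matching sites in the members are shown first. The mature sequences are from RefSeq (GRCm38.p6), and the hairpin lies on the plus strand of chromosome 11. The seed, bases 2 to 8, is in capitals. The arm miR-142a-3p lies at chr11:87756903-87756925 and miR-142a-5p at chr11:87756867-87756887. 
miR-142a-3p: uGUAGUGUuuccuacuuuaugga
miR-142a-5p: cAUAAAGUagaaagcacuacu

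The 3′ UTRs of the coding transcripts in GENCODE M21 (GRCm38, the mm10 assembly) were searched on the transcript strand for the 7 letters that pair with each seed, ACACTAC for 3p and ACTTTAT for 5p, and for the same letters followed by A, an 8mer. Of the 8 members, Ptprg and Ptpra held a match and the other 6 held none in the transcript searched. In the lines that follow the matched letters are in capitals, with up to 8 bases of the UTR on either side.
Ptprg, miR-142a-3p 7mer at chr14:12238812-12238818, plus strand: tctaataaACACTACctatagac
Ptprg, miR-142a-5p 8mer at chr14:12240612-12240619, plus strand: tttcctaaACTTTATAtgagcttt
Ptpra, miR-142a-3p 7mer at chr2:130554359-130554365, plus strand: gccacagcACACTACtgttcgag

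The Ptprg 3′ UTR is 4168 bases long. Among 500 tested genes whose 3′ UTRs were nearest to it in length, 16.4% held the 3p letters and 35.4% held the 5p letters. Over the UTRs of all 12609 tested genes with one, the shares were 6.92% and 15.8%, and 5.14% held the 5p 8mer. Near the Ptpra length of 2656 bases 10% held the 3p letters. The Ptpra match lies past the end of the gene as the count table lists it. A match of letters is a description of the sequence only.

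Library totals ran from 16267965 to 24687077 counts, with the lowest in a CP CML mouse. The deletion was visible in every library, since Mir142 had 94 to 127 counts in WT, 68 to 153 in CP CML and 0 in all 12 libraries of miR-142 KO and BC CML. Of the genes that define the sort, Kit lay between 661.9 and 1240 CPM over the 24 libraries. Ly6a, which encodes Sca-1, had 30.75 to 49.5 CPM in WT and 36.6 to 69.9 in CP CML, against 51.5 to 155.4 in miR-142 KO and 94.3 to 134.8 in BC CML. Flt3, a receptor of lymphoid-primed progenitors, had medians of 817.3 and 686.2 CPM in WT and CP CML and of 396.2 and 282.1 in miR-142 KO and BC CML, so genes that mark cells within the sort moved with the loss of Mir142, and their part in the differences that follow was not tested. CPM scales the count of a gene to the TMM-adjusted total of its library, so that libraries of unequal depth can be compared. Mice are numbered within a group in the order of deposit, and WT 3 stood apart with 970.9 summed CPM of 7 macrophage genes, against 45.1 to 170.9 in the other 5 WT libraries, so results that rest on it are given with and without it. In these bulk libraries fewer cells of a type and less RNA per cell cannot be told apart.

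Levels between genes were compared as RPKM, which divides CPM by the gene length in kilobases as the count table gives it. In WT LSKs the 8 genes spanned more than 3 orders of magnitude. Ptpra had a median of 50.5 RPKM and Ptpre 42.7, and their ranges overlapped. Ptprs followed at 26.8 and Ptprj at 9.97 RPKM, each clear of its neighbours. A low tier came next, with Ptpro at 0.300, Ptprk at 0.263 and Ptprm at 0.141 RPKM, whose ranges overlapped. Ptprg was last in WT at a median of 0.0287 RPKM, below the range of every other member, and it was also last in miR-142 KO at 0.0179 and in CP CML at 0.0430 RPKM. In BC CML it was the fifth, at 1.51 RPKM, above Ptprk at 0.734, although the ranges of these 2 genes overlapped. As a share of the summed RPKM of 21 receptor-type phosphatase genes, Ptprg had a median of 0.0138% in WT and 0.762% in BC CML, while Ptprc held 35.0% and 37.2%. Ptprg thus changed its place in the order without becoming one of the abundant members, and Ptpra, Ptpre, Ptprs and Ptprj kept places 1 to 4 in each group.

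**Figure D1:**
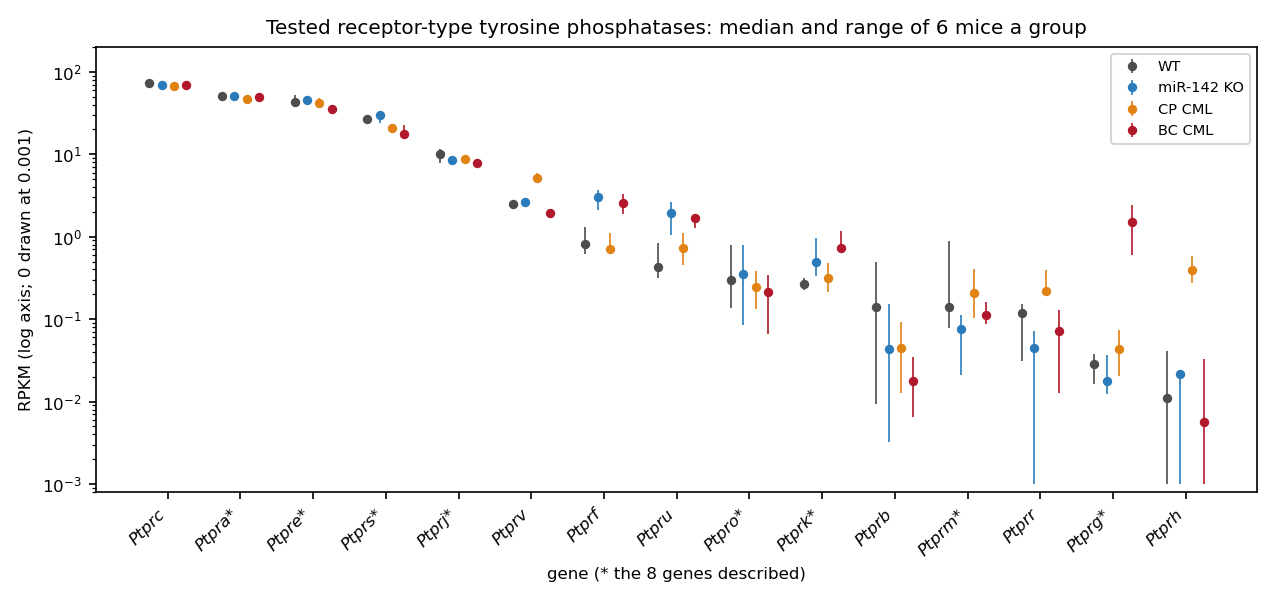
Median RPKM (dots, log axis) and range over 6 mice a group (bars) for the 15 tested receptor-type tyrosine phosphatases, ordered by their WT level, with values of 0 drawn at 0.001. Ptprg sits at the low end in WT (median 0.0287), miR-142 KO and CP CML and at 1.51 RPKM in BC CML, and Ptprh is the gene that stands out in CP CML.

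Ptprg, on chromosome 14 (11553553 to 12242039, plus strand, mm10), was close to undetected in 18 of the 24 libraries. It had 4 to 9 counts in WT with a median of 7.5, 3 to 9 in miR-142 KO with a median of 4.5, and 5 to 13 in CP CML with a median of 10.5. In the 6 BC CML libraries it had 556, 149, 267, 244, 452 and 444 counts. Every BC CML mouse was therefore above every other mouse, as for 296 of the 13520 tested genes, and the 3 other groups overlapped one another. Between BC CML and CP CML alone, 20.7% of tested genes had no overlap in either direction.

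In CPM the lowest, median and highest values of Ptprg were 0.175, 0.307 and 0.401 in WT. They were 0.133, 0.191 and 0.398 in miR-142 KO and 0.219, 0.460 and 0.788 in CP CML. In BC CML they were 6.43, 16.1 and 26.2, with a mean of 15.9 ± 7.0 (SD, n = 6). The BC CML mice differed 4.07-fold among themselves, with the lowest in BC 2 and the highest in BC 1, both female. The difference between BC CML and CP CML, which chose the gene, was 5.11 on the log2 scale, or 34.5-fold, and that between BC CML and miR-142 KO was 6.16, or 71.4-fold. The lowest BC CML mouse stood 8.16-fold above the highest of the 18 others. By that ratio Ptprg ranked 2 among the 296 tested genes with every BC CML library above all others, after Svs2 at 14.8-fold and before Ndst3 at 6.91-fold, and 21 of the 296 had a ratio of at least 2.

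Ptprg was among the tested genes through its BC CML counts only, since in fits of WT with miR-142 KO or with CP CML alone the filter on low counts removed it. In the model of all 24 libraries it did not pass in either comparison. Between miR-142 KO and WT the log2 fold change was -0.48 (SE 0.42, 95% interval -1.34 to 0.38, edgeR adjusted p = 0.386), and between CP CML and WT it was 0.57 (SE 0.38, interval -0.21 to 1.35, adjusted p = 0.223). At 3 to 13 counts a library these intervals are wide, and log2 differences up to 1.35 between CP CML and WT lie within them. In the normal LSKs the loss of Mir142 went with a log2 difference of -0.48, which did not pass. In the CML LSKs it went with one of 5.11, the contrast that chose the gene. The 2 differences share no library.

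**Figure D2:**
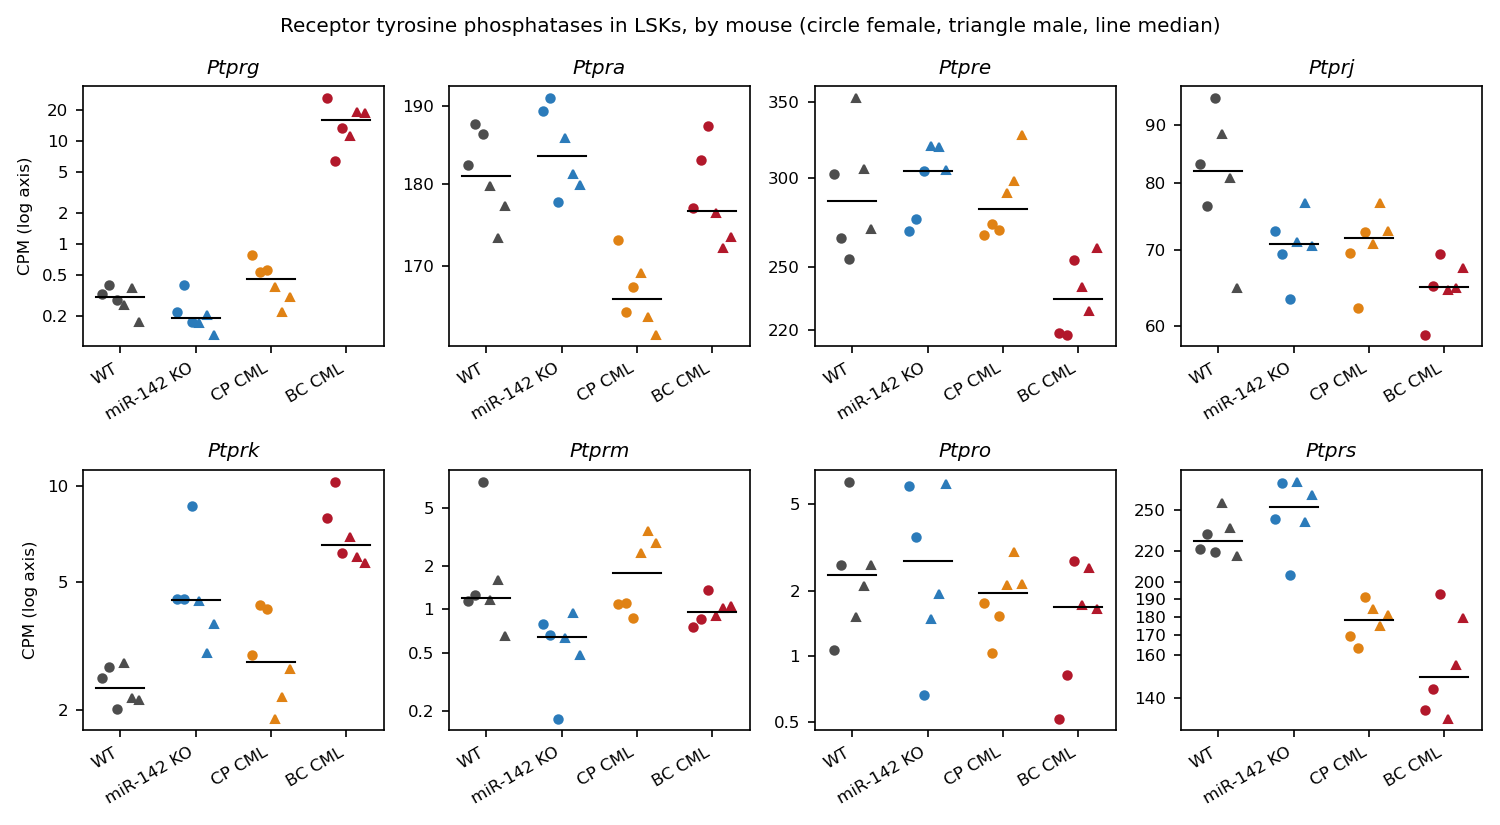
CPM of each of the 8 genes (log axis, scaled for each gene) in 6 mice a group, with circles for females, triangles for males and a line at the group median. Ptprg is between 6.43 and 26.2 CPM in BC CML and below 1 CPM in the other 18 mice, while the remaining genes differ between groups by much less.

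The genes around Ptprg did not share its pattern. The nearest coding gene before it, Fhit, encoding a diadenosine triphosphate hydrolase, lies 391.5 kb away and had 1.30 to 2.13 CPM in WT and 0.330 to 0.691 CPM in BC CML, so it was lower there than in WT with no overlap. The nearest after it, 3830406C13Rik at 42.1 kb, had 24.9 to 32.8 CPM in WT, and the ranges of CP CML (18.3 to 24.8) and BC CML (23.1 to 28.7) overlapped. Fezf2 and Cadps, the next ones after it, had 0 counts in all 24 libraries. On the other side, 4930452B06Rik had medians of 2.69 CPM in WT and 0.600 in BC CML, and Oit1 had no more than 1 count in any library. The closest relative of Ptprg, Ptprz1, the only other phosphatase with a carbonic anhydrase-like domain, had 1 to 2 counts summed over the 6 libraries of each group and was too low to be tested.

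Other tested genes followed Ptprg closely over the 24 libraries. By Pearson's r on log2 CPM (prior count 2), the nearest were Svs2 (0.970), a seminal vesicle secretory protein gene, Cemip (0.966), whose product degrades hyaluronan, the proton channel gene Otop1 (0.965), Mab21l1 (0.957) and Ndst3 (0.951), an enzyme that modifies heparan sulfate. Iqsec3 (0.949), Aard (0.945), the NMDA receptor subunit gene Grin2c (0.939), Gpr176 (0.938) and Lxn (0.937) came next. The first 9 were near 0 in WT and miR-142 KO, with medians of at most 2.5 counts, and had medians of 25.5 to 143.5 counts in BC CML. Lxn, encoding the carboxypeptidase inhibitor latexin, differed from them in being well detected in all groups, with medians of 21.5 CPM in WT and 37.5 in BC CML. At the other end stood Gpatch2l (-0.900), Dapk1 (-0.894), encoding a death-associated kinase, and Fam228b (-0.884). These correlations run over libraries that fall into 4 groups, 1 of which holds nearly all the Ptprg counts, and describe likeness of pattern only. With a prior count of 0.5, 7 of the 10 nearest genes were again among the 10 nearest.

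Markers of mast cells and basophils were also highest in BC CML. The summed CPM of 7 such genes, all detected, was 5425 to 11740 in BC CML and 1839 to 3737 in CP CML, against 225.8 to 2619 in miR-142 KO and 82.5 to 570.5 in WT. BC CML was above the rest for this list as for Ptprg. CP CML, the next group by the list, had 0.219 to 0.788 CPM of Ptprg. Within BC CML, BC 1 was highest on both measures, with 26.2 CPM of Ptprg and a list sum of 11740. BC 2 had the lowest Ptprg, 6.43 CPM, with the second highest list sum, 10320. BC 3 had the lowest sum, 5425, with 13.5 CPM of Ptprg. Whether such cells contribute the Ptprg reads was not tested.

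**Figure D3:**
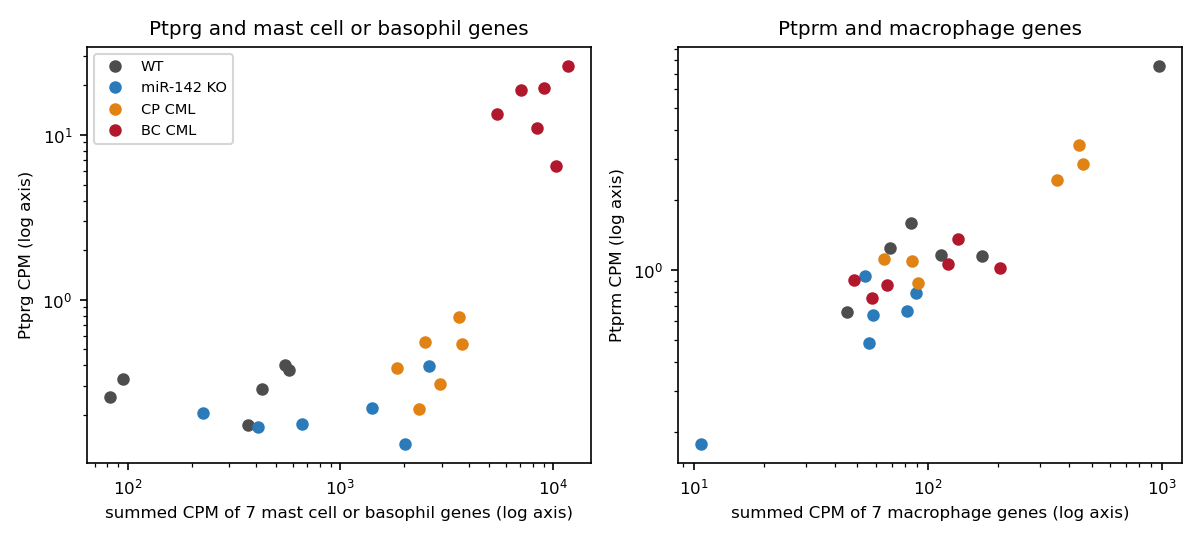
Left, Ptprg CPM against the summed CPM of 7 mast cell or basophil genes, and right, Ptprm CPM against the summed CPM of 7 macrophage genes, 1 dot a mouse, all axes log. BC CML mice lie apart on the left (Ptprg 6.43 to 26.2 CPM, list 5425 to 11740 CPM), and on the right the mouse WT 3 and 3 CP CML mice lie highest on both axes.

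Set beside Ptprg, the other members moved little. Ptprg is left out of the calls counted here, since it was tested through its BC CML counts only. Between miR-142 KO and WT 3 of the 7 other members passed edgeR's quasi-likelihood test at an adjusted p of 0.05. Ptprk was higher and Ptprj and Ptprm were lower, where 36.3% of all tested genes passed (19.9% higher and 16.4% lower). The median log2 fold change of all 8 members, Ptprg included, was 0.03, against 0.005 over all tested genes. Only Ptprk had groups with no overlap, where 14.5% of tested genes had none (8.31% with the second group higher). Between CP CML and WT 3 of the 7 other members passed, Ptpra, Ptprj and Ptprs, all lower, where 45.4% of all genes passed (22.5% higher and 22.9% lower). The groups of Ptpra and Ptprs did not overlap, where 21.8% of genes had none (9.87% with CP CML lower). The median of all 8 members was -0.15, against -0.02. Between BC CML and miR-142 KO 3 of the 7 members other than Ptprg passed, Ptprk higher and Ptpre and Ptprs lower, where 39.6% of all genes passed (20.3% higher and 19.3% lower), with a median of -0.12 against -0.02. The groups of Ptpre and Ptprs did not overlap, where 10.6% of genes had none (4.48% with BC CML lower). The shares of members that passed in either direction are near the background in all 3 comparisons. Shares by direction and of groups without overlap rest on few members. KO against WT and CP CML against WT share the WT libraries, and KO against WT and BC CML against KO share those of miR-142 KO.

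**Figure D4:**
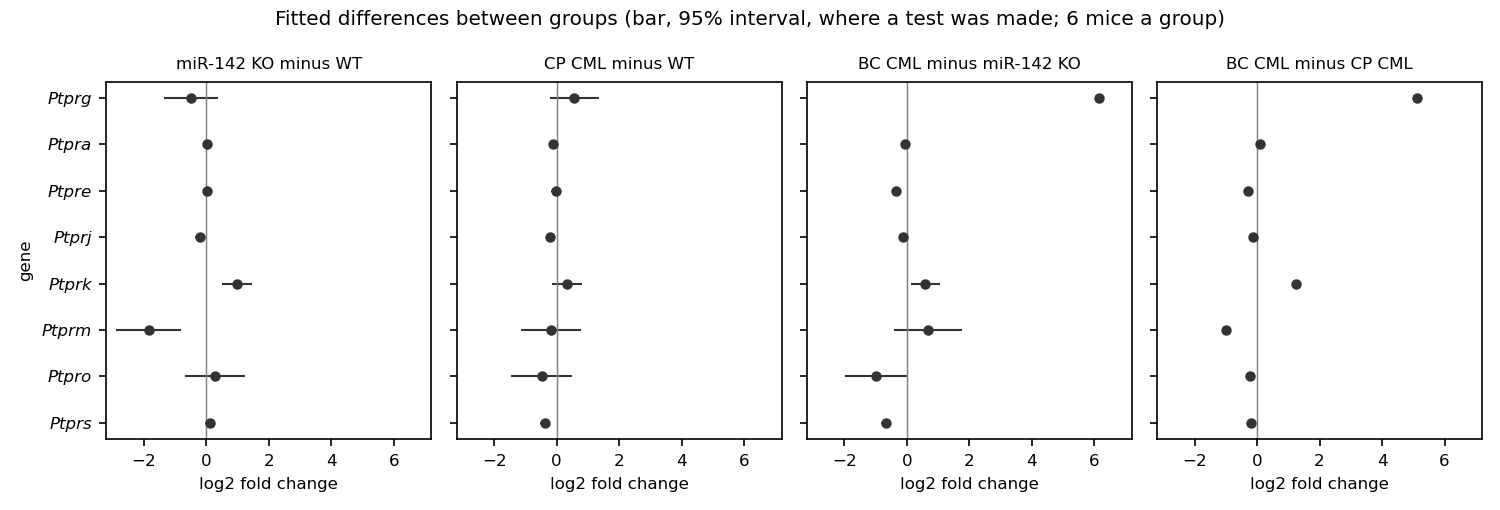
Fitted log2 fold changes of the 8 genes in 4 comparisons of 6 against 6 mice, with bars for 95% intervals where the gene was tested and none where the contrast chose the genes. Ptprg lies at 6.16 and 5.11 in the 2 right panels, Ptprk is above 0 in the panels for miR-142 KO (0.99) and BC CML (0.59 and 1.25), and Ptpra, Ptpre, Ptprj and Ptprs stay within 0.67 of 0.

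Ptprk and Ptprm belong to the sub-family whose extracellular MAM and immunoglobulin domains bind their like on neighbouring cells. Ptprk (chromosome 10, 28074820 to 28597397, plus strand) had its higher levels in the 2 groups that lack Mir142. Its lowest, median and highest values were 2.01, 2.34 and 2.80 CPM in WT and 3.0, 4.40 and 8.63 CPM in miR-142 KO. All miR-142 KO mice were above all WT mice, and the log2 fold change was 0.99 (SE 0.23, adjusted p = 0.00169), which stayed between 0.75 and 1.10 without any 1 mouse. In CP CML Ptprk had 1.88, 2.82 and 4.25 CPM, overlapping WT, with 0.33 (SE 0.23, adjusted p = 0.252).

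In BC CML Ptprk had 5.72, 6.52 and 10.3 CPM. These mice were above all CP CML mice, by 1.25 on the log2 scale, and above 5 of the 6 miR-142 KO mice, the exception being KO 3 at 8.63 CPM. The difference from miR-142 KO was 0.59 (SE 0.22, adjusted p = 0.0385). This last call was lost in 8 of the 12 fits that left out 1 of the mice compared, with an adjusted p of up to 0.121. The differences that went with Mir142 loss, 0.99 without and 1.25 with BCR-ABL, lay side by side for Ptprk. Those of Ptprg were -0.48, which did not pass, and 5.11, the contrast that chose the gene.

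Ptprm (chromosome 17, 66666848 to 67354459, minus strand) had 0.656, 1.21 and 7.57 CPM in WT and 0.177, 0.650 and 0.944 CPM in miR-142 KO. The groups overlapped, and the highest value, 7.57, was that of WT 3. The log2 fold change was -1.84 (SE 0.51, adjusted p = 0.00637), and without WT 3 it was -0.90 (adjusted p = 0.0596), so the call rested on that mouse.

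In CP CML Ptprm split by sex, with 0.878 to 1.11 CPM in the 3 females and 2.43 to 3.45 CPM in the 3 males, and the summed CPM of the 7 macrophage genes split in the same way, with 64.6 to 91.0 in the females and 354.3 to 459.8 in the males. Sex and macrophage level cannot be told apart in those 6 mice. WT 3 was highest on both measures, and KO 3 was lowest on both, with 0.177 CPM of Ptprm and 10.7 summed CPM of macrophage genes. The difference between CP CML and WT was -0.18 (SE 0.47, adjusted p = 0.777) with WT 3 and 0.78 (adjusted p = 0.0693) without it. In BC CML Ptprm had 0.754, 0.964 and 1.36 CPM, with 0.68 (SE 0.52, adjusted p = 0.316) against miR-142 KO. Whether macrophage RNA accounts for the Ptprm values was not tested. Ptprg, Ptprk, Ptpre and Ptpro also split by sex in CP CML, with no overlap. Females were higher for Ptprg (0.537 to 0.788 CPM against 0.219 to 0.384) and Ptprk (2.97 to 4.25 against 1.88 to 2.67). Males were higher for Ptpre (290.6 to 326.9 CPM against 266.8 to 272.9) and Ptpro (2.13 to 3.02 against 1.03 to 1.76).

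Ptprs (chromosome 17, 56412426 to 56476480, minus strand) encodes a receptor for heparan and chondroitin sulfate proteoglycans and was lower in each CML group than in its counterpart without BCR-ABL. Its lowest, median and highest values were 216.8, 227 and 255 CPM in WT, 204.7, 252 and 272.3 in miR-142 KO and 163.5, 178 and 191.4 in CP CML. All CP CML mice were below all WT mice, and the log2 fold change was -0.38 (SE 0.08, adjusted p = 0.000841). Without any 1 mouse it stayed between -0.39 and -0.34.

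In BC CML Ptprs had 131.6, 149.7 and 193.2 CPM. All BC CML mice were below all miR-142 KO mice, with -0.67 (SE 0.08, adjusted p = 2.543e-06), or 1.59-fold lower. The loss of Mir142 without BCR-ABL gave 0.11 (SE 0.08, adjusted p = 0.295), and the BC CML and CP CML ranges overlapped, with -0.18 between them.

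Ptpra and Ptpre have short, heavily glycosylated extracellular segments and act on the inhibitory tyrosine of Src family kinases. Ptpra (chromosome 2, 130450278 to 130554300, plus strand) was the steadiest member, with a coefficient of variation of 2.40% to 3.27% within groups. It had 173.3, 181 and 187.6 CPM in WT and 162.1, 166.1 and 173.1 CPM in CP CML. The ranges did not overlap, but the gap was small, and the log2 fold change was -0.12 (SE 0.03, adjusted p = 0.00432). In miR-142 KO it had 177.8, 183.5 and 191.1 CPM and in BC CML 172.2, 176.7 and 187.4 CPM. Both ranges overlapped that of WT, with 0.02 (SE 0.03, adjusted p = 0.572) for KO against WT, -0.05 (SE 0.03, adjusted p = 0.243) for BC CML against KO and 0.10 between BC CML and CP CML (0.050 with upper quartile scaling). A transcript listed on the other strand, 4930473A02Rik, overlaps Ptpra, and whether the counting used strand is not given in the sources used here.

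Ptpre (chromosome 7, 135537824 to 135686294, plus strand) was lowest in BC CML. It had 254.3, 286.2 and 352.9 CPM in WT, 269.1, 304.3 and 320.1 in miR-142 KO and 266.8, 281.7 and 326.9 in CP CML, 3 ranges that overlapped. In BC CML it had 218.1, 234.5 and 260.2 CPM, below all miR-142 KO and all CP CML mice but overlapping WT. The log2 fold change against miR-142 KO was -0.34 (SE 0.07, adjusted p = 0.00103), and the difference from CP CML was -0.28. KO against WT gave 0.03 (adjusted p = 0.736) and CP CML against WT -0.02 (adjusted p = 0.830). 5830432E09Rik lies on the other strand within Ptpre.

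Ptprj and Ptpro carry fibronectin-type repeats outside the cell and a single phosphatase domain inside it. Ptprj (CD148; chromosome 2, 90429756 to 90580647, minus strand), which also acts on Src family kinases in blood cells, had 64.8, 82.0 and 94.99 CPM in WT. It had 63.4, 70.8 and 76.9 CPM in miR-142 KO, 62.2, 71.6 and 76.8 in CP CML and 59.0, 64.9 and 69.4 in BC CML. All groups overlapped, although 5 of the 6 WT mice were at or above 76.4 CPM. The log2 fold change was -0.20 (SE 0.07) both for KO against WT (adjusted p = 0.0239) and for CP CML against WT (adjusted p = 0.0206), comparisons that share the WT mice. The first call was lost without WT 3, WT 4, KO 2 or KO 3 and the second without WT 3, WT 4, CP 1, CP 2 or CP 4, with adjusted p of up to 0.0911 and 0.0964. BC CML against KO gave -0.12 (SE 0.07, adjusted p = 0.176).

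Ptpro (chromosome 6, 137252299 to 137464633, plus strand), best known from kidney podocytes, was low and variable, with 1.07, 2.36 and 6.30 CPM in WT and 0.664, 2.73 and 6.18 CPM in miR-142 KO. It had 1.03, 1.95 and 3.02 CPM in CP CML and 0.519, 1.69 and 2.72 CPM in BC CML. All 4 ranges overlapped. The highest WT value, 6.30 CPM, was that of WT 3. KO against WT gave 0.29 (SE 0.47, adjusted p = 0.663) and CP CML against WT -0.48 (SE 0.48, adjusted p = 0.425). Without any 1 mouse the first ran from 0.02 to 0.74 and the second from -0.65 to -0.02, and neither passed. BC CML against KO gave -0.99 (SE 0.48, adjusted p = 0.105). Without KO 3, that difference became -1.21 (adjusted p = 0.0311).

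The remaining 13 receptor-type phosphatases included 7 tested genes. Between miR-142 KO and WT, where 36.3% of all tested genes passed (19.9% higher and 16.4% lower), 2 of these 7 passed. Ptprf and Ptpru were higher in miR-142 KO than in WT, by 1.74 (SE 0.19, adjusted p = 2.886e-07) and 1.97 (SE 0.24, adjusted p = 8.704e-07) on the log2 scale, and the other 5 did not pass. Both were also higher in BC CML than in CP CML, by 1.71 (SE 0.20, adjusted p = 4.684e-07) and 1.11 (SE 0.23, adjusted p = 0.000612). Ptprf had medians of 22.9 CPM in miR-142 KO and 19.5 in BC CML, against 6.25 in WT and 5.40 in CP CML. The test of whether the effect of Mir142 loss differed with BCR-ABL gave -0.03 (SE 0.27, adjusted p = 0.968) for Ptprf and -0.87 (SE 0.33, adjusted p = 0.136) for Ptpru. For Ptprg the same quantity was 5.59, a value that the choice of the gene used. Among the 7 tested genes the UTR of Ptprf holds 1 match to the 5p letters and that of Ptprb, which gave -1.63 in miR-142 KO against WT (adjusted p = 0.0932), 1 match to the 3p 8mer.

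Ptprh and Ptprv showed a different pattern, with a high level in CP CML. Ptprh had 6 to 9 counts summed over 6 libraries in WT, miR-142 KO and BC CML and 209 in CP CML, where every library was between 1.11 and 2.30 CPM. It was 4.55 higher in CP CML than in WT on the log2 scale and -5.01 in BC CML against CP CML. With at most 4 counts in any library of the other groups, Ptprh was among the tested genes through its CP CML counts only. Its differences are therefore given without a test. Ptprv was 1.05 higher in CP CML than in WT (SE 0.08, adjusted p = 7.255e-10), and its difference between BC CML and CP CML was -1.42 (SE 0.08, adjusted p = 8.758e-13). Apart from Ptprh, Ptprv was the only one of the 7 for which the 2 effects of Mir142 loss differed. The difference was -1.46 (SE 0.11, adjusted p = 1.085e-08), where 3.99% of all tested genes passed that test. For Ptprh the same quantity was -4.88. Ptprr was 1.41 higher (adjusted p = 0.0133) and Ptprb -2.0 (adjusted p = 0.0384) in CP CML against WT. In all, 4 were higher, with Ptprh counted, and 1 lower in that comparison, where 45.4% of all tested genes passed (22.5% higher and 22.9% lower). Ptprc, at medians of 473.2 to 516.7 CPM, gave -0.11 (SE 0.05, adjusted p = 0.0773) for KO against WT and -0.11 (SE 0.05, adjusted p = 0.0717) for CP CML against WT.

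Of 17 non-receptor tyrosine phosphatases 15 were tested. Between miR-142 KO and WT, where 19.9% of all genes were higher and 16.4% lower, 6 were higher and 3 lower, led by Ptpn13, a large phosphatase with PDZ domains, at 3.14 (SE 0.39, adjusted p = 1.446e-06). Ptpn7, a MAP kinase phosphatase of blood cells, gave 0.35, Ptpn18 -0.32 and Ptpn11 (SHP2), which relays growth factor signals, 0.20 (SE 0.04, adjusted p = 0.00105). Between CP CML and WT (22.5% of all genes higher and 22.9% lower) 6 were higher, among them Ptpn1 at 0.45, Ptpn13 at 2.15 and Ptpn3 at 0.47, and 4 were lower, among them Ptpn14 at -1.74. Between BC CML and CP CML, where 38.0% of all genes passed (20.4% higher and 17.6% lower), 4 were higher and 3 lower, with Ptpn13 at 1.54 and Ptpn7 at 0.44 on one side and Ptpn18 at -0.30 and Ptpn21 at -0.40 on the other. Between BC CML and miR-142 KO (20.3% and 19.3%) 4 were higher, with Ptpn2 at 0.45, Ptpn1 at 0.31 and Ptpn3 at 0.39, and 4 lower, with Ptpn14 at -1.64. Ptpn6 (SHP1), which damps signalling from blood cell receptors, rose by 0.12 to 0.14 in each of these 4 comparisons. The adjusted p was 0.0392 for KO against WT, 0.0388 for CP CML against WT, 0.0201 for BC CML against CP CML and 0.0238 for BC CML against KO.

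All 11 genes of the Src family kinases and their regulators, on which Ptpra, Ptpre, Ptprj and Ptprc act, were tested. In miR-142 KO against WT, where 36.3% of all genes passed (19.9% higher and 16.4% lower), 4 were lower and the other 7 did not pass. The 4 were Lck (-1.41, adjusted p = 2.079e-07), Blk (-2.48, adjusted p = 0.00386), Yes1 (-0.72, adjusted p = 0.00729) and the adaptor gene Pag1 (-0.49, adjusted p = 1.701e-05). In BC CML against miR-142 KO (39.6% of all genes, 20.3% higher and 19.3% lower) 5 were lower and Lyn was higher at 0.25 (adjusted p = 0.00693). Among the 5 were Fyn at -0.57 (adjusted p = 2.042e-07), Lck at -0.56 (adjusted p = 0.00699) and the inhibitory kinase gene Csk at -0.16 (adjusted p = 0.00537). In BC CML against CP CML (38.0%, 20.4% higher and 17.6% lower) 4 were lower and 7 did not pass. The 4 were Lck (-1.05), Pag1 (-0.47), Fyn (-0.18) and Csk (-0.14). In CP CML against WT (45.4%, 22.5% higher and 22.9% lower) 4 were lower, including Fyn (-0.44), Lck (-0.92) and Blk (-3.57), and Lyn was higher (0.31). Lck and Blk are lymphocyte kinases, and 8 B cell or plasma cell genes summed to 86.4 to 987 CPM in WT and 171.7 to 761.8 in CP CML, but to 27.8 to 44.4 in miR-142 KO and 29.96 to 40.8 in BC CML. The 6 T or NK cell genes in the table moved the other way in miR-142 KO, with a median sum of 13.5 CPM (2.30 to 43.6) against 4.58 (2.01 to 11.3) in WT, and BC CML had 4.63 (2.77 to 7.49) and CP CML 3.98 (2.77 to 4.57). The part of lymphoid cells in these differences was not tested.

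Several contactins, among them that of Cntn3, bind Ptprg, and proteoglycans bind Ptprs. Of 18 such genes 12 were tested, with 4 higher and 3 lower in miR-142 KO against WT (36.3% of all genes passed), 2 and 5 in CP CML against WT (45.4%), 1 and 3 in BC CML against miR-142 KO (39.6%), and 6 and 3 in BC CML against CP CML (38.0%). Cntn1, encoding a contactin known as a ligand of Ptprz1, had medians of 2.94 CPM in miR-142 KO and 1.52 in BC CML, against 0.0820 in WT and 0.0825 in CP CML. It was 5.66 higher in miR-142 KO than in WT on the log2 scale and 4.28 higher in BC CML than in CP CML. Among the miR-142 KO mice it ran from 0.575 to 13.8 CPM. Cntn3 had medians of 0.0640 CPM in WT and 0.862 in miR-142 KO (log2 difference 3.77), and of 0 in CP CML and 0.404 in BC CML (3.44). Its lowest miR-142 KO value, 0.1275 CPM, was below the highest WT value, 0.1337. Both contactin genes had at most 6 counts in any WT or CP CML library and were tested through the groups without Mir142. Their differences are therefore given without a test, although the counts of genes above include them. The glypican gene Gpc1 rose in miR-142 KO by 1.64 (SE 0.19, adjusted p = 4.412e-07) and in CP CML by 1.82 (SE 0.19, adjusted p = 1.708e-07) against WT, and in BC CML by 0.73 (SE 0.18, adjusted p = 0.00298) against miR-142 KO. The syndecan gene Sdc1 gave -2.87 in miR-142 KO (adjusted p = 4.951e-07) and -1.65 in CP CML (adjusted p = 0.000211) against WT. Agrin (Agrn) gave 0.62 in miR-142 KO (adjusted p = 0.000125) and -0.60 in CP CML (adjusted p = 0.000193) against WT.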

How the data were processed

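Bulk LSK mRNA (Kapa mRNA HyperPrep, paired reads) was quantified by the authors, who deposited whole-number read counts per gene for 24 libraries. Their processing notes and methods name Trimmomatic, STAR 2.6.0, HTSeq 0.11.1, the mm10 build and edgeR. The annotation and the strand setting are not given in the sources used here. The deposited table also gives a gene length in kilobases, an other value that was used for RPKM only. All 24 count columns matched a labelled sample, so 0 were left out.

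Counts were filtered with filterByExpr, scaled by TMM and fitted with edgeR 4.0.16 (R 4.3.3), using the quasi-likelihood test, 1 model with the 4 groups of 24 libraries and Benjamini-Hochberg adjustment over all 13520 tested genes, with a threshold of 0.05. Correlations used log2 CPM with a prior count of 2. Library totals of 16267965 to 24687077 left Ptprg at 3 to 13 counts outside BC CML, where counting error limits it. On simulated counts for KO against WT, 86 of 100 genes changed by 1 on the log2 scale and 92 of 100 changed by 2 were recovered among 13422 genes, with 7 false calls. Each p-value sets a difference between groups against the spread between mice within groups, estimated from all 24 libraries. DESeq2 1.42.0, the likelihood ratio test, other scalings and filters, sex as a covariate, fits of 12 libraries and leaving out each mouse were alternatives.

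The members and lists were chosen with earlier results of these data known. Besides the members, the named genes were Mir142, Ptprc, Ptpn6 and Ptpn11, up to 4 genes with the smallest p per list and comparison among those called with a mean of at least 1 CPM in 1 group, the 10 genes most like and 3 least like Ptprg, and the 3 nearest coding genes on either side. Kit, Ly6a, Ptprz1, Ptprh, Ptprv, Cntn1, Cntn3, Flt3 and overlapping genes were also named in comparisons or for checks outside that rule, after their values were seen. The methods state 5 mice a group where the labels list 6. Seed matches were searched with Python 3.11.15.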

Additional observations from a re-analysis of the deposited data

Results flagged for a closer look

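In 32 groups of 6 mice (8 genes in 4 groups), 4 held a mouse far from the others of its group, by Dixon's ratio of the gap to the nearest mouse over the range at its 95% limit. Chance flags about 1 in 20 groups. Ptprg had 0.398 CPM in KO 2, against 0.221 in the next mouse, a difference of 9 against 5 counts. Ptprk had 8.63 CPM in KO 3, against 4.42 in the next. Ptprm had 7.57 CPM in WT 3, against 1.59 in the next, and Ptpro had 6.30 CPM in the same mouse, against 2.63. WT 3 also had the highest summed macrophage genes and KO 3 the lowest, and the part of these cells in the 4 values was not tested.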

How the results depend on the processing

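No paired analysis was possible because the labels give each mouse its own number and no number shared between groups. DESeq2, the likelihood ratio test, RLE scaling, a filter of at least 1 CPM in 6 libraries and sex as a covariate each kept the direction and the side of the threshold of every result they were run on. Upper quartile scaling turned the sign of 2 values near 0 in KO against WT that passed under neither, Ptpra to -0.025 and Ptpre to -0.016, took the Ptpra difference between BC CML and CP CML from 0.10 to 0.050 (0.059 without BC 3), and lowered the share of higher genes among all those called from 54.7% to 42.0% in KO against WT and from 53.7% to 42.4% in BC CML against CP CML. The call of Ptprk in BC CML against KO was lost without a filter on low counts (adjusted p = 0.0511) and in a fit of the 12 libraries compared (0.0675), and those of Ptprj in KO and CP CML against WT in such fits (0.0662 and 0.0528). The cause was not tested. Leaving out 1 mouse gave 1 to 3 members called in KO against WT, with 1 (Ptprk) without WT 3, 2 to 3 in CP CML against WT, and 2 to 4 in BC CML against KO. It turned Ptprm (-0.40 to 0.78) and Ptpre (-0.047 to 0.050) in CP CML against WT. The log2 difference of Ptprg between BC CML and CP CML ran from 4.89 to 5.28. Ptprg was removed by the filter in fits of 12 libraries without BC CML, and with no filter its adjusted p was 0.420 in KO and 0.274 in CP CML against WT. Depth limits it, at 3 to 13 counts, outside BC CML.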

Other observations

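The effect of Mir142 loss in normal LSKs was also compared between females and males. None of the 8 members passed the test of a difference between the sexes in edgeR, where 1 of 13520 tested genes did, and 1 of the 8 had an unadjusted p under 0.05. That member was Ptprm, with a difference of -1.88 on the log2 scale (unadjusted p = 0.0386, adjusted p = 0.617), and its value holds WT 3, a female.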
